A study of Zanthoxylum armatum with 15 samples.

Results

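Among the 111318 unigenes (assembled transcript sequences) of Zanthoxylum armatum, a spiny tree grown for its aromatic, numbing fruits, 85 formed a stem-enriched set. The members were chosen by their measured stem values. CPM was the estimated count per 1000000 estimated counts of the library. A member belonged to Cluster-12235, which holds 79040 unigenes, had at least 2 CPM in every stem library, and its lowest stem CPM was at least 4 times its highest CPM in the 12 libraries of the other organs. Cluster-12235.67, which also met these limits with 13.9 CPM in stems on average, was left out by the rule. Contrasts of stems with the other organs are therefore given below as descriptions, and for the members only differences among the organs other than stems were tested.

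The study sequenced RNA of stems, roots, fruits, mature leaves and leaf buds, with 3 libraries each. All came from untreated 3-year-old trees of a single improved variety, 'Hanyuan putaoqing', sampled in May when the fruits had reached full size. Each library mixed material from 3 plants, so the error is between such mixtures. The stem files carry another abbreviation inside than the paper uses, and were assigned to stems by their tissue labels.

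A woody stem carries water and sugars between roots and leaves. Its vascular cambium, a layer of dividing cells, forms xylem (wood) inward and phloem outward, and xylem cells deposit thick secondary walls of cellulose, xylan and lignin. Young stems also bear an epidermis with cuticle, a green photosynthetic cortex, later a corky bark and, in this genus, prickles. Libraries of whole organs average all of these cells, and fewer cells of a type cannot be told apart from less RNA per cell.

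Estimated counts summed to between 18802274 and 24081708 per library, and to between 21346216 and 23346838 in stems. The photosynthetic antenna proteins, the light-harvesting proteins of chloroplasts, served to check the organ labels. The 20 unigenes held of this list summed to between 16197 and 16445 CPM in mature leaves and 6189 and 6865 CPM in fruits. The sums were 4416 to 5268 CPM in stems, 4062 to 4593 CPM in leaf buds, and 18.3 to 26.7 CPM in roots. The roots did not overlap any green organ. Stems and leaf buds overlapped, so this list cannot tell their labels apart. Within stems, replicate 3 stood apart, with a chi-square per unigene of 7.54 and 7.76 against the other replicates, compared with 2.19 between replicates 1 and 2. Replicate 3 was also the farthest in roots, at 16.01 and 21.5 compared with 3.23, and in leaf buds, at 9.08 and 9.31 compared with 5.21.

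None of the 85 members was among the 2668 unigenes, 2.40% of all, that carry a name or a pathway in the supplementary tables as far as they were held. The members are therefore described by identifier and level only, and no role is given to any of them.

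The members made up 0.284% of the 29972 unigenes of Cluster-12235 that had at least 2 CPM in every stem library. The same limits applied to each other organ in turn found 283 unigenes in fruits, 334 in leaf buds, 578 in mature leaves and 823 in roots, so stems had the smallest set of the 5 organs. Outside Cluster-12235 only 7 unigenes met the stem limits. Summed over the 85 members, the libraries held 7785 to 8066 CPM in stems, which is 0.785% of the estimated counts at the median. The same sum lay between 451 and 498 CPM in roots, 587 and 827 CPM in leaf buds, 236 and 253 CPM in mature leaves and 385 and 412 CPM in fruits.

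**Figure D1:**
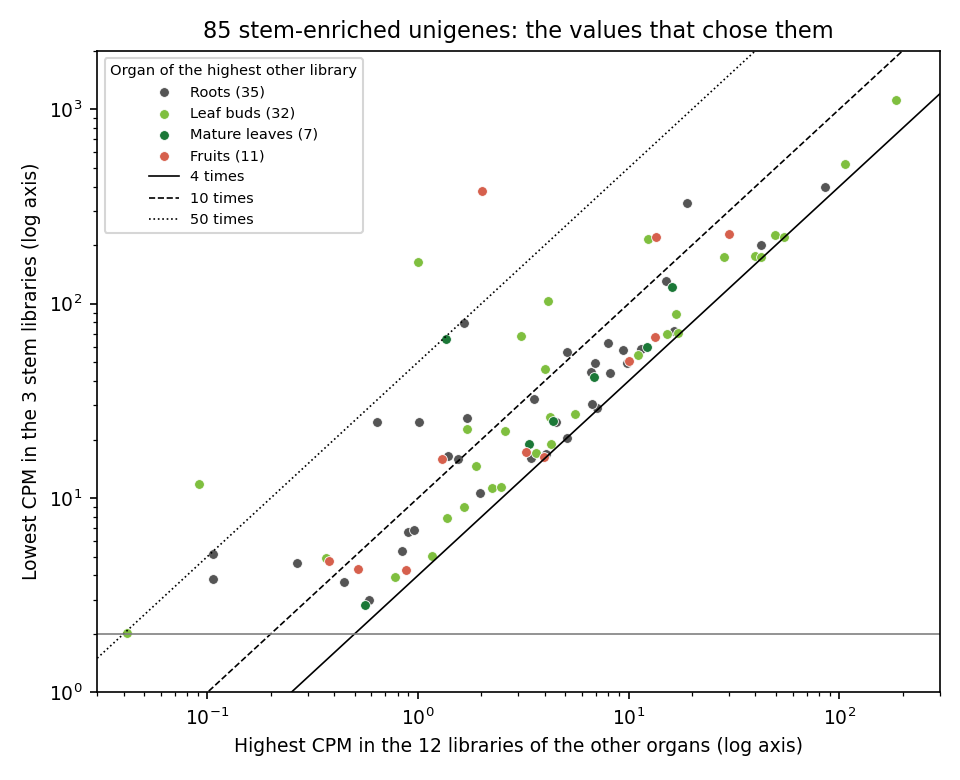
Lowest CPM in the 3 stem libraries against the highest CPM in the 12 other libraries for the 85 stem-enriched unigenes, both on log axes, coloured by the organ of that highest library. Lines mark 4, 10 and 50 times, and the grey line marks 2 CPM; most points lie between the 4 and 10 times lines, and Cluster-12235.1373 and Cluster-12235.1312 stand far above the 50 times line.

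The ratio of the lowest stem CPM to the highest other CPM ran from 4.01 to 187 with a median of 6.13. It was at least 10 for 25 members and under 5 for another 25. The plot of the values that chose them shows that high stem levels and high ratios were not the same property: several members with the highest stem CPM lie close to the limit. Just inside the fold limit were Cluster-12235.65565 with a ratio of 4.01, Cluster-12235.57369 with 4.02 and Cluster-12235.60392 with 4.07. Just outside it were Cluster-12235.78469 with 3.99, Cluster-12235.70326 with 3.97 and Cluster-12235.14850 with 3.93. At the level limit, the lowest stem values inside were 2.01 CPM for Cluster-12235.252, 2.81 CPM for Cluster-12235.78546 and 2.998 CPM for Cluster-12235.803. Outside it were Cluster-12235.1106 with 1.66 CPM, Cluster-12235.1096 with 1.48 CPM and Cluster-12235.1338 with 1.46 CPM.

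Mean stem values ran from 2.89 to 1184 CPM with a median of 31.5 CPM. They were at least 100 CPM for 19 members and under 10 CPM for 17. Per length, on the FPKM scale (fragments relative to unigene length and library size), the mean stem level ran from 2.54 to 1102 with a median of 39.1, and 2 members were among the 100 unigenes with the highest stem FPKM. The length implied by the deposited count and FPKM had a median of 1082 bases over the members, compared with 1345 bases over 29886 other unigenes of Cluster-12235 with at least 2 CPM in every stem library.

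The 10 members with the highest mean stem CPM took 54.9% of the members' stem CPM. The first, Cluster-12235.30585, took 14.99% alone. In the 3 stem libraries Cluster-12235.30585 stood at 1206.5, 1117 and 1229 CPM. It stood at 159, 157 and 185 CPM in leaf buds, 71.0, 64.2 and 85.3 CPM in fruits, 31.8, 27.8 and 33.8 CPM in roots, and 12.8, 11.6 and 12.9 CPM in mature leaves. The 5 organs did not overlap, and its order was stems, leaf buds, fruits, roots, mature leaves. On the FPKM scale it was the highest member as well, with a mean stem level of 1102 ± 53.3 (SD, n = 3).

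Cluster-12235.60430 stood at 780, 694 and 398 CPM in stems, so replicate 3 was lower than both others. Its roots were the next highest at 85.4, 74.0 and 67.1 CPM, followed by leaf buds at 33.3, 33.6 and 53.8 CPM, fruits at 22.1, 28.2 and 20.7 CPM and mature leaves at 17.5, 19.7 and 17.6 CPM. Mature leaves lay at the bottom on the CPM scale, below every library of the other organs. The fit described below, which scales the libraries differently, did not separate them from fruits. Their mature leaf minus fruit log2 fold change there was -0.26 ± 0.21 (SE; edgeR quasi-likelihood test, Benjamini-Hochberg adjusted p = 0.34).

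Cluster-12235.30211 was the steadiest member in stems, with 520, 529 and 533 CPM and a coefficient of variation of 1.23%. In leaf buds it stood at 57.3, 55.5 and 107 CPM, and in fruits at 39.7, 38.5 and 33.6 CPM. The 3 root libraries lay between 22.8 and 23.3 CPM and the 3 mature leaf libraries between 10.6 and 11.5 CPM. Its second highest organ was therefore leaf buds in every library, but the single library at 107 CPM set how close it came to the stem value.

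Cluster-12235.1373 had the largest ratio, 187. It stood at 435, 556 and 378 CPM in stems and at 1.56, 2.02 and 1.76 CPM in fruits. Mature leaves held 0.650, 0.467 and 0.364 CPM. Its root libraries held 15 counts in all and its leaf bud libraries 2 counts in all. The unigene was thus near the counting limit in leaf buds, while the fruit libraries lay above those of every other organ except stems.

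Cluster-12235.1312 had the second largest ratio, 165, and a per-length stem level of 285 ± 21.3 FPKM (SD, n = 3). In stems it stood at 192, 174 and 164 CPM. It had no count in any of the 3 root libraries or the 3 mature leaf libraries, which allows up to 0.0501 CPM in roots and 0.0473 CPM in mature leaves at 3 counts over the organ. Leaf buds held 36 counts in all, or 0.386, 0.997 and 0.138 CPM, and fruits held 21 counts. Such limits cover counting error only.

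**Figure D2:**
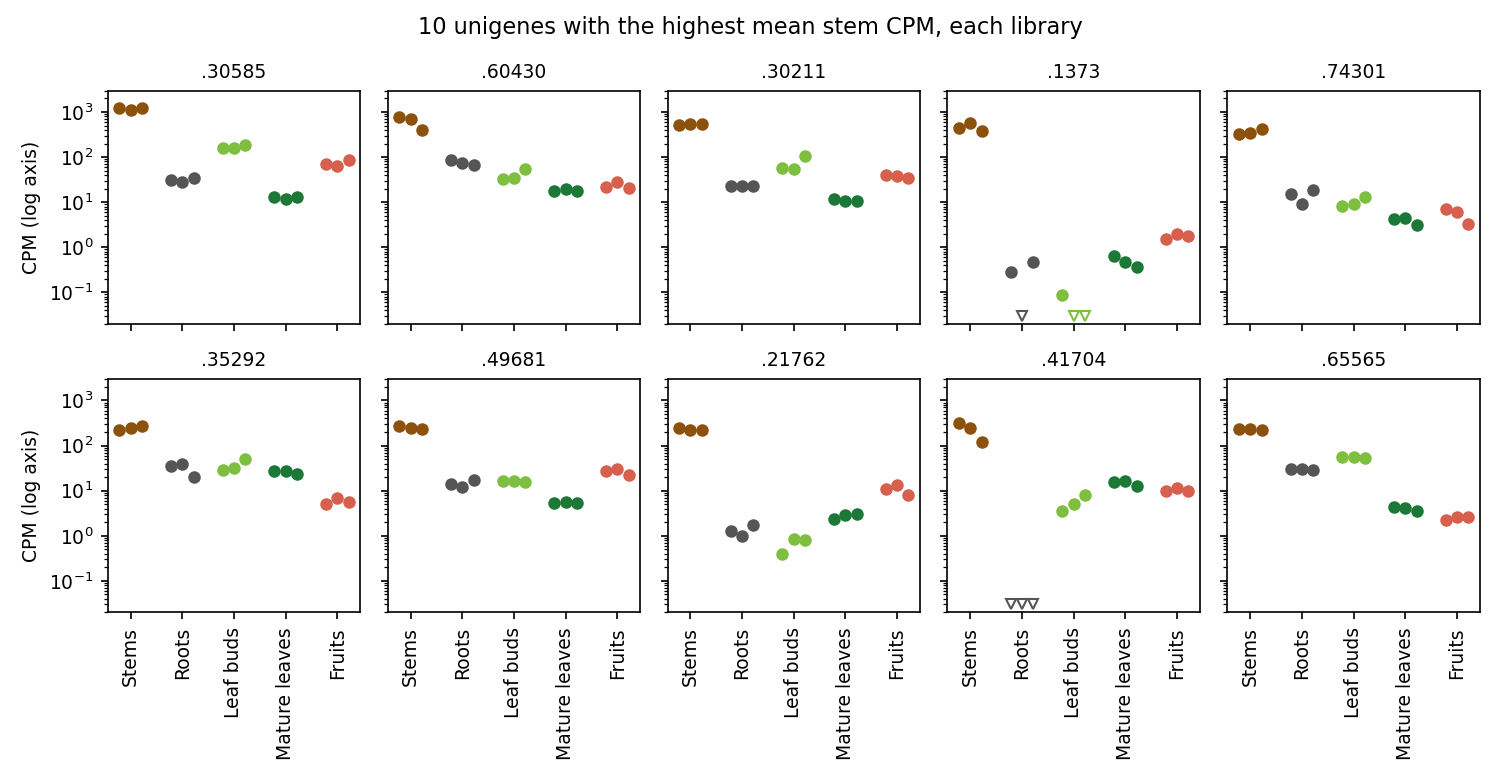
CPM on a log axis in each of the 15 libraries for the 10 members with the highest mean stem CPM, named by the part of the identifier after Cluster-12235; the 3 points of an organ are replicates 1 to 3 from left to right, and open triangles at the bottom mark libraries with 0 counts. Cluster-12235.1373 and Cluster-12235.41704 are the members with libraries at 0, and Cluster-12235.60430 and Cluster-12235.41704 have a stem replicate 3 well under the others.

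The remaining members of the 10 differed in which organ came second. Cluster-12235.74301 stood at 328, 334 and 423 CPM in stems and at no more than 19.0 CPM elsewhere, in root replicate 3. Cluster-12235.35292 stood at 226, 251 and 277 CPM in stems. Its roots (35.7, 38.9 and 20.1 CPM) overlapped both its leaf buds (29.4, 32.7 and 49.4 CPM) and its mature leaves (26.9, 27.2 and 23.5 CPM). Its fruits lay below all of these, at 5.16, 7.01 and 5.56 CPM. Leaf buds and mature leaves did not overlap each other on the CPM scale, but the fit described below did not separate them. Their log2 fold change there was 0.03 ± 0.18 (SE; edgeR quasi-likelihood test, Benjamini-Hochberg adjusted p = 0.91). Cluster-12235.49681 stood at 278, 241 and 230 CPM in stems and next in fruits, at 28.0, 29.9 and 22.7 CPM.

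Other members of the 10 had strong gaps between the other organs. Cluster-12235.41704, with 314, 246 and 122 CPM in stems, had no count in roots. It reached 15.7, 16.1 and 12.8 CPM in mature leaves, 9.86, 11.6 and 9.91 CPM in fruits and 3.48, 5.19 and 7.85 CPM in leaf buds. It was the only one of the 10 without a count in a whole organ.

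Members with large ratios were not all abundant. The 10 largest ratios belonged to Cluster-12235.1373, Cluster-12235.1312, Cluster-12235.1089, Cluster-12235.10734, Cluster-12235.78370, Cluster-12235.4129, Cluster-12235.78245, Cluster-12235.252, Cluster-12235.78368 and Cluster-12235.72212. Cluster-12235.1089 stood at 33.7, 26.5 and 11.8 CPM in stems and held 3 counts over the leaf bud libraries, 2 over the mature leaf libraries and none in roots or fruits. Cluster-12235.252, at 3.47, 3.73 and 2.01 CPM in stems, had 1 count outside stems, in leaf buds. Cluster-12235.78370 and Cluster-12235.78368 held 4 and 6 counts outside stems, so ratios of such members rest on single counts and are not printed.

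The others of these 10 had enough counts outside stems for their ratios to be read. The ratio was 48.5 for Cluster-12235.10734, 48.0 for Cluster-12235.4129, 38.4 for Cluster-12235.78245 and 24.9 for Cluster-12235.72212. Cluster-12235.10734 stood at 83.6, 66.1 and 67.8 CPM in stems and at no more than 1.36 CPM in any other library. Cluster-12235.78245 stood at 24.5, 30.9 and 38.3 CPM in stems and had no count in leaf buds, and no other library outside stems exceeded 0.638 CPM.

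Spread between stem libraries was small for most members. The coefficient of variation over the 3 stem libraries had a median of 9.94% and ran up to 46.6%, and the highest stem library was less than 1.5 times the lowest for 73 members. The 3 steadiest members were Cluster-12235.30211, Cluster-12235.6273 (6.89, 6.98 and 7.11 CPM) and Cluster-12235.16141 (201, 205 and 208 CPM). The 3 most variable were Cluster-12235.1089, Cluster-12235.41704 and Cluster-12235.78369. Of these, the first 2 were lowest in replicate 3, whereas Cluster-12235.78369 stood at 24.7, 24.5 and 46.1 CPM and was highest there.

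Stem replicate 3 was the highest stem library for 49 members, replicate 1 for 29 and replicate 2 for 7. The corresponding shares of the members were 57.6%, 34.1% and 8.24%, compared with 44.0%, 27.8% and 28.2% of the 29972 unigenes of Cluster-12235 with at least 2 CPM in every stem library. Replicate 3 reached at least 1.25 times the mean of the other replicates for 15 members (17.6%, compared with 9.90% of those 29972), and at most 0.8 times that mean for 9 members (10.6%, compared with 11.7%). The ratio ran from 0.391 to 1.87 over the members. Leaving this library out, which can only add unigenes to the set, gave 95.

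**Figure D3:**
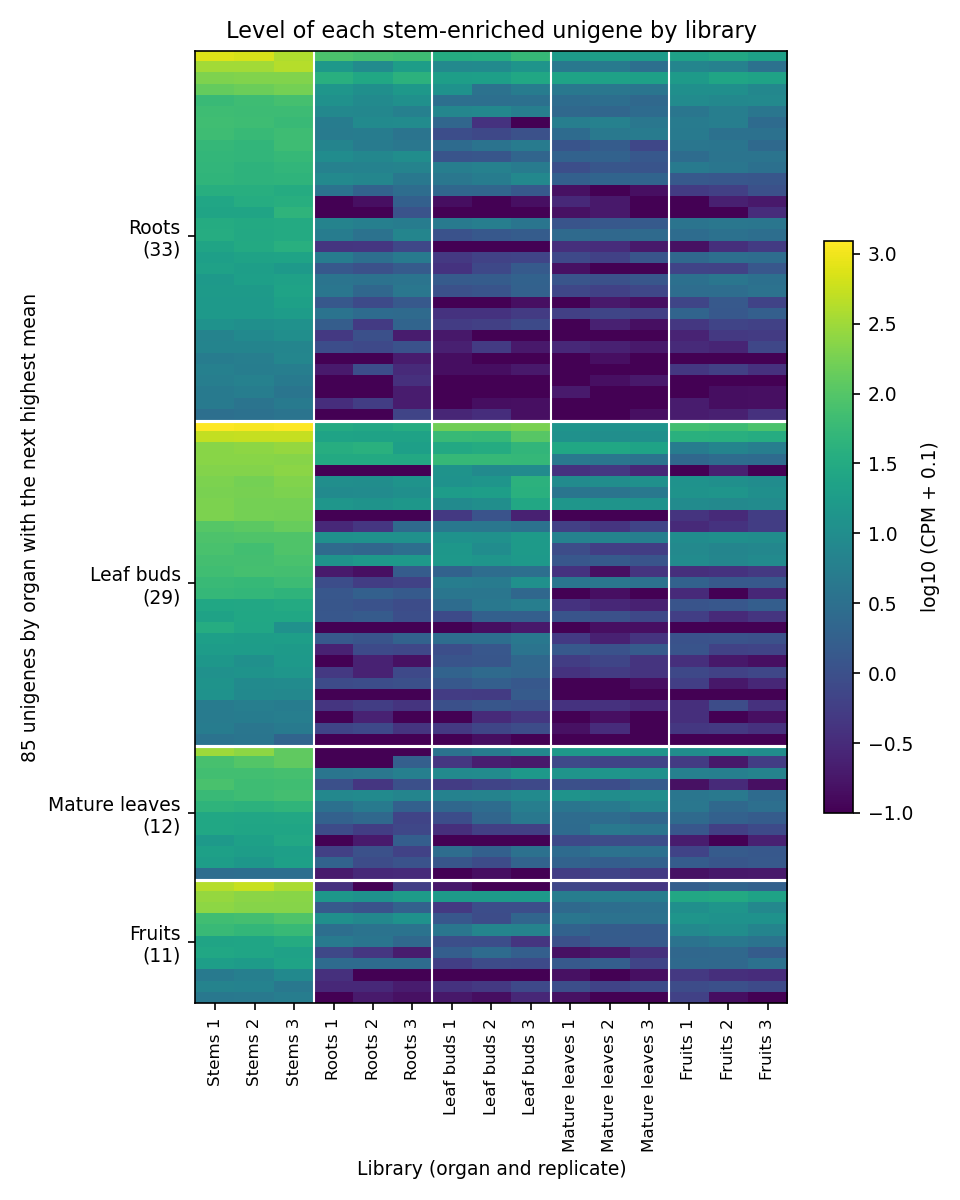
Level of the 85 stem-enriched unigenes as log10 of CPM plus 0.1 in the 15 libraries (columns, by organ and replicate), grouped by the organ with the next highest mean (33 roots, 29 leaf buds, 12 mature leaves, 11 fruits) and ordered within each group by mean stem CPM. Stems are brightest in every row, as the rule required, and dark cells mark libraries near or at 0.

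The next highest organ by mean was roots for 33 members, leaf buds for 29, mature leaves for 12 and fruits for 11. These shares, 38.8%, 34.1%, 14.1% and 12.9%, lay close to those of the 29972 unigenes of Cluster-12235 with at least 2 CPM in every stem library, 33.3%, 39.5%, 15.5% and 11.6%. As a percentage of the member's own stem mean, the median level was 5.90% in roots, 4.83% in leaf buds, 4.88% in fruits and 2.08% in mature leaves. At least 10% of the stem mean remained in leaf buds for 27 members, in roots for 25, in mature leaves for 9 and in fruits for 14. Under 1% remained in mature leaves for 31 members, in roots for 17, in leaf buds for 19 and in fruits for 19. A whole organ lacked counts of 6 members in roots, of 6 in leaf buds, of 6 in mature leaves and of 5 in fruits.

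A test of which organs other than stems differed used values that the rule capped but did not order. All 85 members passed the filter on low counts, which some reached only through the stem libraries that chose them: with only the 6 libraries of a pair in the fit, 56 to 63 members passed. With edgeR's quasi-likelihood F test and Benjamini-Hochberg adjustment over 57488 unigenes, 73 of the 85 members (85.9%) differed among roots, leaf buds, mature leaves and fruits, compared with 77.8% of all unigenes tested. The members were thus called about as often as unigenes at large in this fit, and this test was not repeated without the stem libraries. The 5 members with the smallest p were Cluster-12235.65565, Cluster-12235.30585, Cluster-12235.1391, Cluster-12235.21762 and Cluster-12235.33146.

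Cluster-12235.65565 stood at 233, 230 and 220 CPM in stems, 54.8, 54.7 and 52.6 CPM in leaf buds and 30.9, 30.02 and 29.04 CPM in roots. Mature leaves lay between 3.55 and 4.45 CPM and fruits between 2.19 and 2.64 CPM. No 2 organs overlapped. Leaf buds exceeded mature leaves by a log2 fold change of 3.27 ± 0.11 (SE; edgeR quasi-likelihood test, Benjamini-Hochberg adjusted p = 1.1e-15) and roots exceeded them by 2.46 ± 0.11 (adjusted p = 4.9e-14). The step from leaf buds to roots was smaller, at 0.81 ± 0.09 on the log2 scale, under the fold limit for a call.

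For Cluster-12235.30585, whose values are given above, leaf buds exceeded roots by a log2 fold change of 2.37 ± 0.12 (edgeR quasi-likelihood test, Benjamini-Hochberg adjusted p = 8.6e-13) and mature leaves by 3.26 ± 0.13 (adjusted p = 1.5e-14). Fruits exceeded mature leaves by 2.44 on that scale, as the fitted mature leaf minus fruit value was -2.44 ± 0.13 (adjusted p = 2.2e-12). The difference between leaf buds and fruits, 0.82 ± 0.11, did not reach the fold limit.

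Cluster-12235.1391 had most of its remaining counts in leaf buds. It stood at 218, 216 and 236 CPM in stems and at 12.4, 8.93 and 9.31 CPM in leaf buds. Mature leaves held 18 counts in all, fruits 3 and roots none. The difference of leaf buds from mature leaves was 4.66 ± 0.27 on the log2 scale (edgeR quasi-likelihood test, Benjamini-Hochberg adjusted p = 3.3e-11), and that from roots passed the test as well (adjusted p = 1.4e-12), with no fold given against libraries at 0.

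Cluster-12235.21762 had leaf buds as its lowest organ. It stood at 247, 224 and 220 CPM in stems, 10.6, 13.6 and 7.97 CPM in fruits, 2.40, 2.90 and 3.09 CPM in mature leaves, 1.29, 0.991 and 1.76 CPM in roots and 0.386, 0.831 and 0.826 CPM in leaf buds. No 2 of the 5 organs overlapped. Its leaf bud minus fruit log2 fold change was -4.33 ± 0.25 (edgeR quasi-likelihood test, Benjamini-Hochberg adjusted p = 8.2e-12), and its root minus fruit value was -3.32 ± 0.23 (adjusted p = 1.2e-10).

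Cluster-12235.33146 was set apart by low mature leaves. Stems stood at 73.7, 72.3 and 81.4 CPM, roots at 12.4, 16.4 and 15.5 CPM, leaf buds at 15.3, 13.3 and 15.7 CPM and fruits at 9.13, 7.39 and 9.03 CPM, whereas mature leaves lay between 1.05 and 1.35 CPM. Roots and leaf buds overlapped. Their difference was -0.05 ± 0.13 on the log2 scale (leaf buds minus roots), which missed the threshold in edgeR's quasi-likelihood test (Benjamini-Hochberg adjusted p = 0.77). Roots exceeded mature leaves by 3.18 ± 0.17 (adjusted p = 1.5e-12).

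The 6 pairs of these 4 organs were then compared, and a call needed an adjusted p below 0.05 together with a log2 fold change beyond 1 in either direction. The pairs share libraries, so their counts are given side by side. Mature leaves were the low organ more often than the high one. Of the 85, 46 were called between roots and mature leaves in either direction, compared with 39.9% of all unigenes tested, and 33 were higher in roots than in mature leaves (38.8%, compared with 19.2% of all unigenes tested) and 13 were lower (15.3%, compared with 20.7%). Fruits exceeded mature leaves for 34 members (40%, compared with 12.2%), and mature leaves exceeded fruits for 12 (14.1%, compared with 14%). Leaf buds exceeded mature leaves for 30 (35.3%, compared with 16.8%), and mature leaves exceeded leaf buds for 19 (22.4%, compared with 16.9%).

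The comparisons without mature leaves were less one-sided. In either direction, 49 members were called between leaf buds and roots, compared with 41.4% of all unigenes tested. Leaf buds exceeded roots for 22 members (25.9%, compared with 22.8% of all unigenes tested) and roots exceeded leaf buds for 27 (31.8%, compared with 18.6%). This order was not stable. Without leaf bud replicate 3 the counts were 17 and 27, without leaf bud replicate 2 they were 23 and 23, and without root replicate 3 they were 24 and 20. Over all unigenes tested in each fit, they were 12757 and 12455, 12789 and 11941, and 14472 and 11302, in the same order. With every library they were 13115 and 10686. With just the 6 libraries of this pair in the fit, leaf buds were higher for 19 and roots for 15 of the 63 members tested. The shares were 30.2% and 23.8%, compared with 21.4% and 19.1% of all unigenes in that fit. Leaf buds exceeded fruits for 17 (20%, compared with 15.1%), and fruits exceeded leaf buds for 23 (27.1%, compared with 13.9%). Roots exceeded fruits for 11 (12.9%, compared with 16.2%) and fell below them for 13 (15.3%, compared with 17.7%), a share near the background in both directions.

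When each fit held just the 6 libraries of its pair, members that pass the filter through stems alone drop out, and mature leaves were again the low organ more often than the high one. Roots exceeded mature leaves for 28 of the 58 members tested (48.3%, compared with 22% of all unigenes in that fit) and fruits for 26 of 56 (46.4%, compared with 14.1%). Leaf buds exceeded mature leaves for 25 of 61 (41%, compared with 19.2%). In the opposite direction, mature leaves exceeded roots for 10 of the same members (17.2%, compared with 20% of all unigenes in that fit). They exceeded fruits for 9 (16.1%, compared with 15.3%) and leaf buds for 13 (21.3%, compared with 16.8%). Fruits exceeded leaf buds for 19 of 62 (30.6%, compared with 14.4%) and fell below them for 15 (24.2%, compared with 15.9%). Roots exceeded fruits for 10 of 58 (17.2%, compared with 19%), and fruits exceeded roots for 10 (17.2%, compared with 16.2%).

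The split of higher against lower depended on the scaling in 3 pairs. The fit used TMM normalization, and dropping its factors moves every unigene by 0.49 on the log2 scale between leaf buds and mature leaves, 0.44 between roots and mature leaves, 0.37 between leaf buds and fruits and 0.32 between roots and fruits. On library totals alone, 35 members (41.2%) were higher and 10 (11.8%) lower in leaf buds than in mature leaves. Of all 57488 unigenes tested, 15113 were then higher and 6673 lower, so this pair too became more one-sided at large. Against fruits, leaf buds were then higher for 24 and lower for 19, and roots higher for 16 and lower for 10, so both of these majorities turned. Over all unigenes tested, leaf buds were higher than fruits for 13098 and lower for 5805. Roots were higher than fruits for 13480 and lower for 7847, so the shift was not particular to the members. Mature leaves stayed the low organ for more members than not on that scaling. Against mature leaves, roots were higher for 39 (45.9%) and lower for 11 (12.9%), and fruits higher for 35 (41.2%) and lower for 12 (14.1%). Over all unigenes tested, roots were higher for 16608 and lower for 9020, and fruits higher for 7862 and lower for 7082.

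**Figure D4:**
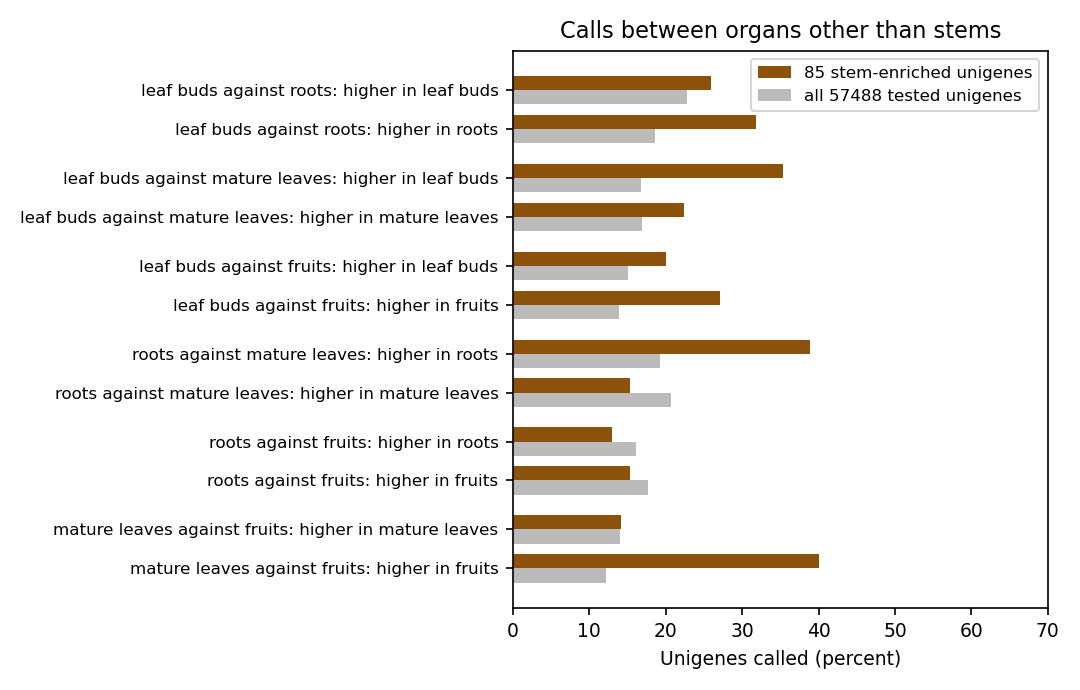
Percent of the 85 stem-enriched unigenes (brown) and of all 57488 unigenes tested (grey) called higher in the organ named at the left, for the 6 pairs of organs other than stems. The widest gaps are those of fruits over mature leaves (40% and 12.2%), roots over mature leaves (38.8% and 19.2%) and leaf buds over mature leaves (35.3% and 16.8%).

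Some members had 1 of the 4 organs on its own at the top or the bottom, called against each of the other 3. These calls came from the fit with all 15 libraries, in which some members passed the filter only through stems. They were not repeated without the stem libraries, so their shares are descriptions. Mature leaves were lowest in this sense for 13 members (15.3%, compared with 4% of all unigenes tested), among them Cluster-12235.33146 and Cluster-12235.49681. Leaf buds were lowest for 11 (12.9%, compared with 4.30%), among them Cluster-12235.21762 and Cluster-12235.1373. Leaf buds were highest for 9 (10.6%, compared with 7.41%), among them Cluster-12235.1391, Cluster-12235.72210 and Cluster-12235.72212. Roots were the lowest for 4 members (4.71%, compared with 8.37%), namely Cluster-12235.41704, Cluster-12235.1339, Cluster-12235.66051 and Cluster-12235.78441.

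The smaller groups were named after their values were seen where the rule did not name them. Fruits were highest for Cluster-12235.1373, Cluster-12235.21762 and Cluster-12235.49681 (3.53%, compared with 2.96%) and lowest for Cluster-12235.1307, Cluster-12235.10734 and Cluster-12235.35292 (3.53%, compared with 0.988%). Mature leaves were highest for Cluster-12235.52689 and Cluster-12235.78546 (2.35%, compared with 7.09%). Roots were highest for Cluster-12235.21544 alone, with 9.68, 7.68 and 9.84 CPM in roots compared with at most 3.66 CPM in any library of the other 3 organs (1.18%, compared with 8.5%). For Cluster-12235.1373 the fruit minus leaf bud difference was the widest: the fitted leaf bud minus fruit log2 fold change was -6.02 ± 0.64 (edgeR quasi-likelihood test, Benjamini-Hochberg adjusted p = 9.9e-08), with 2 counts over the leaf bud libraries.

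Within the organs other than stems, replicate 3 of leaf buds carried more of the members than its partners. The members summed to 587 and 589 CPM in leaf bud replicates 1 and 2 and to 827 CPM in replicate 3. Replicate 3 was the highest leaf bud library for 50 of the members with a leaf bud count (63.3%, compared with 39.0% of the unigenes of Cluster-12235 with at least 2 CPM in every stem library). For 20 members it held at least 1 CPM and at least 1.5 times both partners (23.5%, compared with 3.11%). Cluster-12235.60392 stood at 11.9, 13.4 and 42.5 CPM in leaf buds and at 194, 173 and 207 CPM in stems. Cluster-12235.30211 was also highest in replicate 3, as given above. Without leaf bud replicate 3 the rule would have taken 108 unigenes, the most among the sets with 1 library left out.

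**Figure D5:**
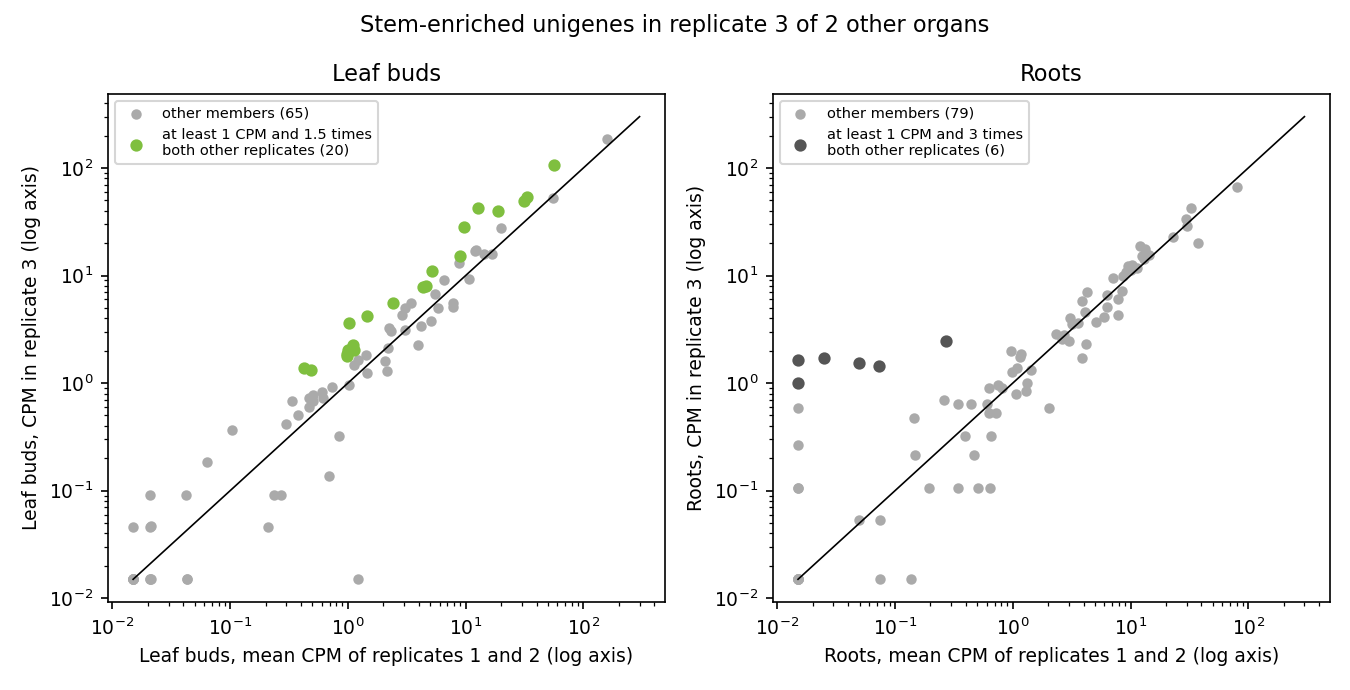
CPM in replicate 3 against the mean CPM of replicates 1 and 2, on log axes, for the 85 members in leaf buds (left) and roots (right); values under 0.015 CPM are drawn at 0.015 and the line marks equality. In leaf buds 20 members (green) hold at least 1 CPM and at least 1.5 times both partners, and in roots 6 members (black) with next to no counts in replicates 1 and 2 reach 1.01 to 2.45 CPM in replicate 3.

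The root libraries held a different pattern, in few members. Replicate 3 held at least 1 CPM and at least 3 times both partners for 6 members (7.06%, compared with 0.0534% of the unigenes of Cluster-12235 with at least 2 CPM in every stem library). These were Cluster-12235.835, Cluster-12235.4129, Cluster-12235.72209, Cluster-12235.72210, Cluster-12235.72212 and Cluster-12235.78369. Cluster-12235.4129 stood at 0, 0 and 1.65 CPM in roots and at 79.1, 99.7 and 124 CPM in stems. Cluster-12235.72212 stood at 0.192, 0.347 and 2.45 CPM in roots and at 104, 116 and 138 CPM in stems. Root replicate 3 held counts of 77 of the 85 members, compared with 68 in replicate 1 and 71 in replicate 2. Those without a count in it included Cluster-12235.1312, Cluster-12235.41704 and Cluster-12235.1391, each with a higher mean stem CPM than Cluster-12235.4129 or Cluster-12235.72212. The part of material from another organ in these root values was not tested.

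Identifiers number the unigenes of a cluster serially, up to 79039 in Cluster-12235, and the members were not spread evenly over these numbers. Under 1400 lay 20 members (23.5%), compared with 0.657% of the 29972 unigenes of Cluster-12235 with at least 2 CPM in every stem library. Over 78000 lay another 10 (11.8%, compared with 0.274%). Both limits were chosen after the values were seen. The sets found with the same rule in the other 4 organs had between 0.173% and 1.20% of their unigenes under 1400. The members with low numbers had a median stem mean of 9.97 CPM and a median ratio of 8.26, those with high numbers 15.1 CPM and 9.65, and the 55 between them 63.4 CPM and 5.42. The sources used here do not say what the numbers follow.

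Members with neighbouring numbers, at most 5 apart, formed 11 runs that held 26 members. The longest run was Cluster-12235.72209, Cluster-12235.72210, Cluster-12235.72211 and Cluster-12235.72212. In stems Cluster-12235.72209 stood at 25.9, 33.4 and 36.2 CPM, Cluster-12235.72210 at 68.3, 75.9 and 73.2 CPM and Cluster-12235.72211 at 5.53, 6.08 and 4.65 CPM. The members of the run differed outside stems. Leaf buds held 1.85, 2.78 and 3.07 CPM of Cluster-12235.72210 and 4.16, 4.15 and 3.40 CPM of Cluster-12235.72212, but Cluster-12235.72211 had no count there and Cluster-12235.72209 no more than 0.0468 CPM. The sources used here do not describe how reads shared by closely similar unigenes were counted, so the values within such a run are uncertain.

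Pathways known in stems were looked at through 11 lists of the study's annotation, as far as held, with the members left out. Except for brassinosteroid biosynthesis, each list was held only in part. The lists were of phenylpropanoid and flavonoid biosynthesis, which feed lignin and pigments, and of the synthesis and signalling of plant hormones. Others were of cutin, suberin and wax, starch and sucrose, carotenoids, diterpenoids, tryptophan metabolism and ABC transporters. Of the 215 unigenes held, 166 passed the filter on low counts. Of these 166, 1 was called higher in stems than in each of the other 4 organs, and 1 was called lower in each. Of all 57488 unigenes tested, members included, 939 (1.63%) were called higher and 269 (0.468%) lower. Counts of 1 are too few to set the lists apart from unigenes at large.

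The higher unigene was Cluster-12235.9132 of the diterpenoid list, with 7.40, 6.72 and 6.26 CPM in stems. Its highest library elsewhere was at 2.94 CPM, in leaf buds, so it stood outside the stem-enriched set. The lower one was Cluster-12235.37019 of the tryptophan metabolism list, with 0.281, 0.343 and 0.537 CPM in stems and 3.60 to 4.47 CPM in roots. Its smallest fitted difference was that from leaf buds, -1.20 on the log2 scale, and the call was lost without leaf bud replicate 1 and also without stem replicate 1.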

How the data were processed

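RNA-seq libraries of 5 organs were analysed, with 3 replicates of each. The authors trimmed paired-end Illumina reads, assembled all libraries with Trinity and deposited for every unigene of each library an estimated count, which need not be whole (11.7% to 15.3% of the values in a library were not). They also deposited an FPKM value per unigene and library, which is relative to unigene length and library size. For the aligner and the counter, nothing is given in the sources used here.

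The members and lists were chosen with earlier results of these data known. CPM was computed from the library totals, and limits for zeros allow 3 counts over an organ. The counts, rounded to integers, were fitted with edgeR 4.0.16 in R 4.3.3 (TMM, filterByExpr, quasi-likelihood F test), with all 15 libraries in 1 model and p-values adjusted by the Benjamini-Hochberg method over 57488 unigenes. The SE of a log2 fold change is its absolute value over the square root of F.

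Unigenes named in the text were the 10 members with the highest mean stem CPM, the 10 with the largest ratio, 3 on each side of both limits of the rule, the 5 with the smallest p, the 3 most and 3 least variable members in stems and the longest run of numbers. Members with a name in the supplementary tables were to be named as well, and there were 0. The choice of other named unigenes followed a look at their values. The edgeR fit was tried on simulated data, for the test among the organs other than stems and for leaf buds against roots. The other steps were not tried in this way. No replicate pair agreed within sampling noise, so every library counts once. Alternatives were DESeq2 size factors, library totals alone (added after seeing the data), other low-count filters, the replicate number as a block, DESeq2 1.42.0, only the 6 libraries compared, an absolute log2 fold change over 2, other limits and scales of the rule, and each library left out. Tables were made with Python 3.11.15 and pandas 2.3.3, and plots with matplotlib 3.10.9.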

Additional observations from a re-analysis of the deposited data

How the results depend on the processing

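The number of members followed the limits of the rule. A fold of at least 3 gave 159 unigenes and a fold of at least 8 gave 30, whereas TMM effective library sizes gave 83, 78 of them members, and deposited FPKM gave 98, which held all 85. Leaving out 1 library gave 85 to 108 unigenes, the highest without leaf bud replicate 3. With an absolute log2 fold change over 2, the members called were 32 for leaf buds against roots, 29 for leaf buds against mature leaves, 23 for leaf buds against fruits, 24 for roots against mature leaves, 11 for roots against fruits and 23 for mature leaves against fruits. Over all 57488 unigenes tested, the counts at that limit were 13155, 10829, 8972, 13009, 10013 and 7428, in the same order. Leaving out 1 library gave 69 to 74 members called among the 4 organs other than stems, 44 to 50 for leaf buds against roots, 46 to 52 for leaf buds against mature leaves, 40 to 45 for leaf buds against fruits, 44 to 49 for roots against mature leaves, 22 to 28 for roots against fruits and 43 to 47 for mature leaves against fruits. For these counts with 1 library left out, the shares of all unigenes are given above from the fit with every library. The pathway list unigenes called in stems were 1 to 3, with 1 left without leaf bud replicate 1. Of the 66 other settings, 58 gave counts within 1.5 times the reported ones, and 8, all of them given above, did not. Deviations from the organ means correlated at -0.129 to 0.0691 for the same replicate number, and at -0.152 to 0.200 for different numbers. The labels' replicate numbers thus showed no pairing of the libraries, though 3 libraries per organ cannot exclude it. With the replicate number as a block, 74 members were called among the 4 organs, and 49, 49, 40, 47, 24 and 45 in the 6 pairs, in the order given. Over all unigenes tested, 44026 were called among the 4 organs, and 23546, 19174, 16391, 22698, 19119 and 14818 in the pairs. Counts near 0 in the organs other than stems limit the calls, since 3 counts over an organ equal 0.0434 to 0.0501 CPM.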
